A study of Sus scrofa with 41 samples.

Results

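Psoas major muscles with a high adipocyte score were compared with those with a low one. The score of a pig was the mean, over PLIN1, ADIPOQ and FABP4, of the z value over all pigs of log2(CPM + 1), where CPM scales a gene's counts to the pig's total on genes. The 10 pigs with the highest and the 10 with the lowest score were chosen by these measured values, so 20 of 41 pigs are compared and 21 belong to neither group. The muscles came from purebred uncastrated males, 13 Danbred Duroc and 28 Danbred Landrace, fed ad libitum and sampled right after slaughter at 131 to 166 days of age. Each pig gave 1 mRNA library, with 22188911 to 25954816 counts on genes, median 25243577. The labels also give each pig's RNA integrity number (RIN), batch and feed conversion ratio (FCR). The high group held 7 Landrace and 3 Duroc pigs aged 143 to 166 days, and the low group 5 Landrace and 5 Duroc pigs aged 148 to 159 days. No pig received a treatment, and the groups share the feed, the sex and the muscle.

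Adipocytes lie between the fibres of skeletal muscle as marbling fat, and arise there from fibro-adipogenic progenitors under the control of PPARG and the C/EBP factors. They store triglyceride in a large droplet coated by perilipin 1, the product of PLIN1 (chromosome 7, 55237517 to 55250797 in the RefSeq annotation of the pig genome), and secrete adiponectin, the product of ADIPOQ (chromosome 13, 124633906 to 124646237). FABP4 (chromosome 4, 55096400 to 55101209) encodes a cytosolic fatty acid carrier of adipocytes that capillary endothelium and macrophages also make. In a bulk muscle library, fewer adipocytes and less RNA per adipocyte cannot be told apart.

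The score was carried by few pigs. Landrace 4, Landrace 16 and Duroc 1 scored 2.64, 2.55 and 2.32, and the next pig, Landrace 8, scored 1.33. At the edges of the groups the gaps were small, 0.159 in the last pig taken as high against 0.148 in the next one, and -0.547 in the first pig taken as low against -0.542 in its neighbour. PLIN1 ranged from 0.119 CPM over a median of 2.08 to 15.6 CPM in the high pigs, and from 0 over 0.0794 to 0.447 CPM in the low pigs. ADIPOQ ranged from 1.78 over 11.3 to 72.8 CPM in the high pigs and from 0.0801 over 0.731 to 1.95 CPM in the low pigs. FABP4 ranged from 27.7 over 50.8 to 87.2 CPM in the high pigs and from 6.54 over 16.1 to 21.7 CPM in the low pigs. FABP4 was the score gene whose groups did not overlap, while Landrace 7 entered the high group with PLIN1 at 0.119 CPM and FABP4 at 54.1 CPM. Across the 41 pigs log2(CPM + 1) of PLIN1 and ADIPOQ moved together (r = 0.960, and 0.943 over the 38 pigs left without the 3 highest). PLIN1 and FABP4 had r = 0.526, and 0.216 without those 3 pigs. These 3 genes share their libraries and chose the groups, so their levels are a description.

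**Figure D1:**
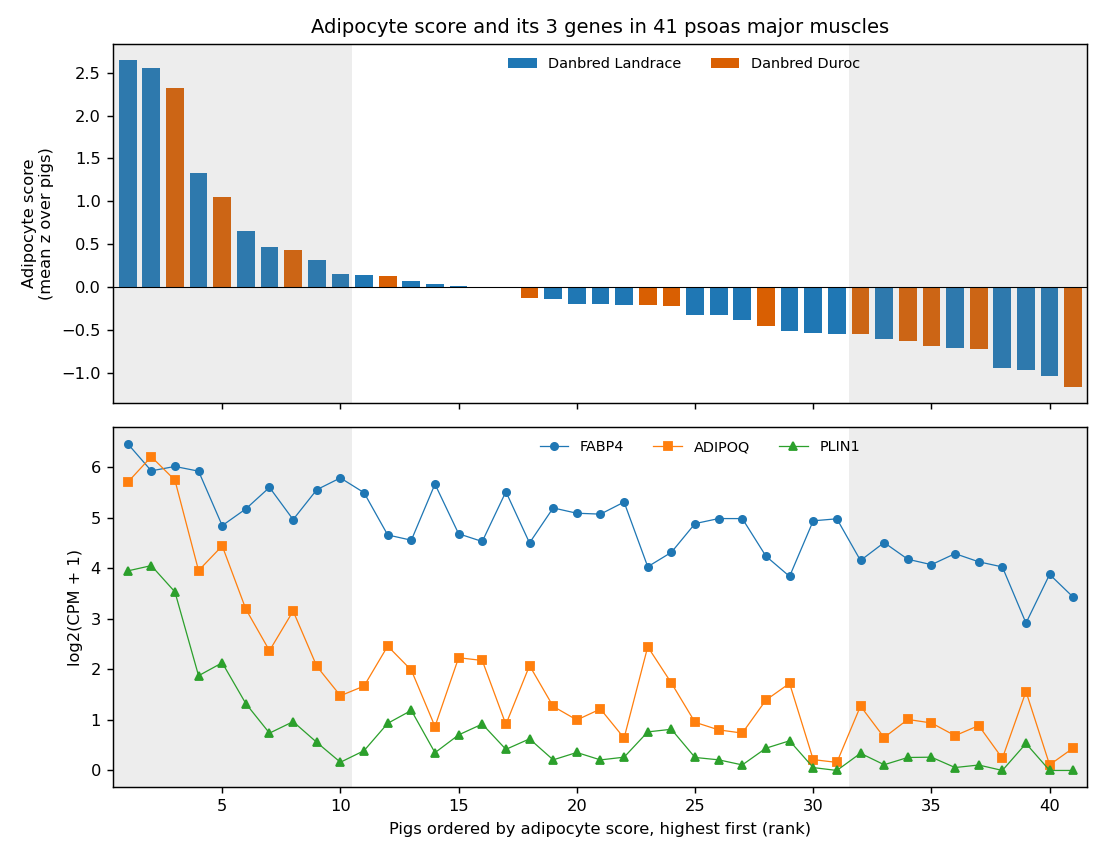
Upper panel, adipocyte score (mean z over pigs) of each of 41 pigs ordered from highest to lowest, coloured by breed. Lower panel, log2(CPM + 1) of FABP4, ADIPOQ and PLIN1 in the same pigs, with the 10 high-score and 10 low-score pigs shaded: 3 pigs score 2.32 or more, and FABP4 declines less steeply than ADIPOQ and PLIN1.

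Each score gene was also tested in groups that a score of the other 2 genes had chosen. PLIN1 was higher in the high pigs by 4.00 ± 1.10 on the log2 scale (SE; FDR = 0.0539) and ADIPOQ by 4.07 ± 1.02 (FDR = 0.0609), both with 8 of 10 high pigs above every low pig. FABP4, in groups chosen by PLIN1 and ADIPOQ, differed by 0.85 ± 0.26 (unadjusted p = 0.00415 in edgeR, FDR = 0.485), with 4 of 10 high pigs above every low pig. The groups chosen without PLIN1 shared 10 high and 9 low pigs with the reported groups, those without ADIPOQ 9 and 9, and those without FABP4 7 and 6. PLIN1 and ADIPOQ also moved together, so these tests largely restate the choice of pigs and are a description. These FDR values come from edgeR's quasi-likelihood test with Benjamini-Hochberg adjustment over all genes, as do those that follow.

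The other genes were compared between the 10 high and 10 low pigs with breed and RIN in the model. Of 11144 genes tested, 1854 passed an FDR of 0.1 (16.6%), 1207 of them higher in the high pigs (10.8%) and 647 lower (5.81%). In CPM, every high pig lay above every low pig for 1.04% of the genes and below it for 0.0%. The scaling factors of the libraries moved with the groups: the TMM factors ran from 1.10 to 1.21 in the high pigs and from 0.65 to 1.16 in the low pigs. Scaling by total counts alone shifted the median of all genes from -0.0024 to 0.242, and turned the split into 3630 higher and 25 lower genes (32.6% and 0.224%, 32.8% in all). The directions given here are therefore relative to the median gene. Where a list of genes had no call in a direction in edgeR, DESeq2 and limma gave none there either, except 1 lower cholesterol gene in DESeq2. At an unadjusted p under 0.05 edgeR had genes in such a direction in 3 lists, 1 lower cholesterol gene, 1 higher cytosolic ribosomal gene and 1 higher slow-fibre gene. RIN was 7.8 to 8.3 in the high pigs and 6.6 to 8.8 in the low pigs, and batch 2 held 6 high pigs and 1 low pig against 1 and 6 in batch 5. With age and batch added to the model 740 genes passed (6.64%), 5.53% of all genes as higher and 1.11% as lower. Leaving out the pigs of batch 5 took away 1 high and 6 of the 10 low pigs, and none passed (0.0%, lowest FDR = 0.118). In that smaller fit 2019 genes had an unadjusted p under 0.05 in edgeR, the one tool run there.

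Among the regulators of fat cell formation, PPARG, the nuclear receptor that drives adipocyte differentiation (chromosome 13, 68301566 to 68433951), ran from 1.54 over a median of 2.07 to 5.61 CPM in the high pigs and from 0.321 over 0.805 to 1.43 CPM in the low pigs. The groups did not overlap, and the difference was 1.26 ± 0.35 on the log2 scale (FDR = 0.0325). It was 1.06 with age and batch in the model and then did not pass (FDR = 0.138). EBF2, a factor of adipocyte commitment, ran from 4.93 over 6.84 to 10.7 CPM against 1.51 over 2.16 to 5.10 CPM, a difference of 1.17 ± 0.23 (FDR = 0.00970) with 9 of 10 high pigs above every low pig. Its paralogue EBF1 rose by 0.79 ± 0.22 and TLE3, a partner of PPARG, by 0.84 ± 0.23. STAT5A and RXRA fell by 0.45 and 0.33. Of 16 adipogenic transcription factors tested, 4 rose, 2 fell and 10 did not pass, where 10.8% of all genes rose and 5.81% fell, with a list median of 0.03 against -0.0024 over all genes. With age and batch 3 rose, EBF2, EBF1 and TLE3, where 5.53% of all genes did. None fell, where 1.11% of all genes did (edgeR, the one tool run there, with 2 lower genes at an unadjusted p under 0.05).

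The enzymes that make fatty acids and triglyceride differed in part. DGAT2, which adds the last fatty acid to triglyceride (chromosome 9, 10032163 to 10066082), ran from 1.02 over 2.92 to 23 CPM in the high pigs and from 0.325 over 0.809 to 2.13 CPM in the low pigs. The spread in the high pigs was wide, with 5 of 10 high pigs above every low pig, and the difference was 2.42 ± 0.76 (FDR = 0.0523). Age and batch in the model made it 1.51, and it then did not pass (FDR = 0.313). ELOVL5, an elongase of polyunsaturated fatty acids, ran from 4.01 over 6.14 to 13.5 CPM against 0.676 over 1.44 to 4.90 CPM and rose by 1.18 ± 0.27 (FDR = 0.0148). FADS1, ACACA and ACLY rose by 0.63, 0.52 and 0.39. GPD1, the cytosolic glycerol phosphate dehydrogenase, fell by 0.47 ± 0.13 (FDR = 0.0301) with overlapping groups. Of 21 genes on this list 5 rose, 1 fell and 15 did not pass, with a median of 0.39, beside 10.8% higher and 5.81% lower over all genes. Under the model with age and batch ELOVL5 alone of the 21 rose, where 5.53% of all genes did. None fell, where 1.11% of all genes did (edgeR, the one tool run there, with 1 lower gene at an unadjusted p under 0.05). FASN, the fatty acid synthase, had 10.7 over 21.3 to 127 CPM in the high pigs and 5.23 over 8.26 to 24 CPM in the low pigs, and did not pass here (1.03 ± 0.51, FDR = 0.204).

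For release and uptake of fatty acids, PDE3B, the phosphodiesterase through which insulin restrains lipolysis, did not overlap between the groups, at 1.61 over 2.22 to 2.88 CPM against 0.284 over 0.947 to 1.48 CPM (1.01 ± 0.28, FDR = 0.0308). LIPA, the lysosomal acid lipase, rose by 0.64 ± 0.14 and LPL, the lipoprotein lipase, by 0.88 ± 0.29, the latter with 1 of 10 high pigs above every low pig. In this list 3 of 13 genes rose, where 10.8% of all genes did, and none fell. The median was 0.04, and with age and batch LPL no longer passed (0.70, FDR = 0.178). The next list held droplet proteins made in muscle fibres as well as in fat cells. Of 10 tested, none rose and FITM1 fell (-0.42 ± 0.13, FDR = 0.0472), a call lost with age and batch (-0.30, FDR = 0.267). Under scaling by total counts 2 of the 10 rose, where 32.6% of all genes did, and none fell. The median of -0.03 became 0.23, beside 0.242 over all genes in that scaling. PLIN2, which coats droplets in most cells, had a difference of -0.11 ± 0.15 and PLIN4 one of -0.31 ± 0.15, neither past the threshold. Fatty acid oxidation genes gave no call among 21 tested, with a median of 0.02.

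Of the 5 fat lists, 16 matched members were below the filter on low counts, some of which, such as CEBPA and RBP4, other cell types also make. In a fit with no filter 6 of these 16 rose and none fell, where 6.49% of 19339 genes rose and 3.19% fell (9.68% in all). TRARG1, which acts in glucose transporter traffic in adipocytes, ran from 0.391 over 1.86 to 20.5 CPM in the high pigs and from 0.0389 over 0.14 to 0.813 CPM in the low pigs (3.89 ± 1.06, FDR = 0.0381). CIDEC, which enlarges the droplet, ran from 0.476 over 1.51 to 9.08 CPM against 0.0401 over 0.224 to 0.618 CPM (2.88 ± 0.71, FDR = 0.0255). SLC7A10, an amino acid carrier of the adipocyte surface, had no overlap, with 0.397 over 0.928 to 2.60 CPM against 0 over 0.181 to 0.389 CPM. CEBPA, THRSP and RBP4 made up the rest of the 6. LEP, which encodes leptin, was at 0 in 5 high and 8 low pigs and held 39 counts in all high pigs against 3 in all low pigs, and it did not pass (FDR = 0.175). LGALS12 and PCK1 did not pass either (FDR = 0.128 and 0.129). Of the 3 secreted or surface proteins above the filter, ITIH5 rose by 0.92 ± 0.20 and CHRDL1 by 0.87 ± 0.27, while CFD, the protease adipsin, differed by 0.35 ± 0.21 and did not pass. With age and batch in the model 1 of the 3 rose, where 5.53% of all genes did, with a median of 0.73 (edgeR, with 2 at an unadjusted p under 0.05).

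The list with the highest share of calls was that of fibroblasts and fibro-adipogenic progenitors, the stromal cells that lay down collagen between fibres. Of 19 genes tested 17 rose, where 10.8% of all genes did, and none fell, with a median of 1.39. COL3A1, which encodes type III collagen (chromosome 15, 93556914 to 93595678), ran from 698 over 1234 to 1631 CPM in the high pigs and from 139 over 208 to 745 CPM in the low pigs (1.60 ± 0.25, FDR = 0.00491). PI16, a marker of adventitial fibroblast progenitors, did not overlap, at 21.6 over 43.9 to 64.0 CPM against 2.73 over 6.38 to 21.1 CPM (1.90 ± 0.32, FDR = 0.00627). PDGFRA, the receptor used to define fibro-adipogenic progenitors, rose by 1.40 ± 0.29, and LUM and DCN, small proteoglycans of the matrix, by 1.39 ± 0.25 and 1.16 ± 0.22. DPP4 and DLK1 were the members that did not pass. The summed level of the list was 2750 to 7490 CPM in the high pigs, 802 to 2999 CPM in the low pigs and 1046 to 13031 CPM in the other pigs, so the highest stromal sum belonged to a pig of neither group. With age and batch in the model 15 of 19 rose, where 5.53% of all genes did. Without the pigs of batch 5 none passed in edgeR, the one tool run there, with 16 at an unadjusted p under 0.05 and a median of 1.19. With groups chosen without FABP4 none passed either, with 8 at an unadjusted p under 0.05 and a median of 0.68. Among Landrace pigs alone, 7 against 7, where 4.46% of all genes passed and 2.76% rose, 1 of 19 rose, with a median of 0.53.

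Lists of vessel wall and blood cells were examined beside them. For smooth muscle and pericytes 7 of 9 genes rose and none fell, with a median of 0.88. ACTA2, smooth muscle actin, ran from 41.5 over 74.1 to 155 CPM against 7.98 over 26.6 to 74.6 CPM (1.53 ± 0.33), and MYH11, smooth muscle myosin, differed by 2.13 ± 0.60. For endothelium 2 of 11 rose, where 10.8% of all genes did, PECAM1 by 0.66 ± 0.23 and TEK by 0.74 ± 0.27, with a median of 0.39 and summed levels of 193 to 317 CPM against 63.1 to 328 CPM. For leukocytes 12 of 18 rose, with a median of 0.90. ITGAM, the CD11b integrin of myeloid cells, did not overlap, at 4.28 over 5.90 to 9.90 CPM against 1.00 over 2.15 to 3.14 CPM (1.41 ± 0.25, FDR = 0.00662), nor did PTPRC, the pan-leukocyte CD45 (1.06 ± 0.22). The macrophage receptors MRC1, CSF1R and CD163 rose by 1.54, 1.46 and 1.41. The T cell gene CD3E differed by 0.69 and the B cell gene CD79A by 0.34, and neither passed. MS4A1 and LYZ, below the filter, were at 0 in 2 and 1 low pigs and in no high pig. The summed leukocyte level was 224 to 535 CPM in the high pigs and 119 to 358 CPM in the low pigs. Neither Schwann cell nor erythroid markers gave a call, with 2 genes tested in each list and medians of -0.17 and 0.26, and the summed Schwann cell level was 16.9 to 164 CPM in the high pigs and 12.6 to 69.3 CPM in the low pigs. HBB, the beta globin, ran from 18.3 to 181 CPM in the high pigs and from 14.0 to 198 CPM in the low pigs. When age and batch were added, 5 of 9 smooth muscle genes, 6 of 18 leukocyte genes and no endothelial gene rose, where 5.53% of all genes did (edgeR, with 2 endothelial genes at an unadjusted p under 0.05). Among Landrace pigs alone 2 of 9 smooth muscle genes, 1 of 18 leukocyte genes and no endothelial gene rose, where 2.76% of all genes did. Their medians were 0.77, 0.57 and 0.45, with 8, 5 and 4 genes higher and 1 smooth muscle gene lower at an unadjusted p under 0.05 in edgeR. With groups chosen without FABP4, which macrophages and endothelium also make, no gene of the 3 lists passed in edgeR, the one tool run there. Then 3 smooth muscle genes, no leukocyte gene and no endothelial gene had an unadjusted p under 0.05, with medians of 0.51, 0.46 and 0.23. Without the pigs of batch 5 none passed either, with 6, 13 and 1 at an unadjusted p under 0.05 in edgeR and medians of 0.75, 0.74 and 0.24. The part of these cells in the other differences was not tested.

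**Figure D2:**
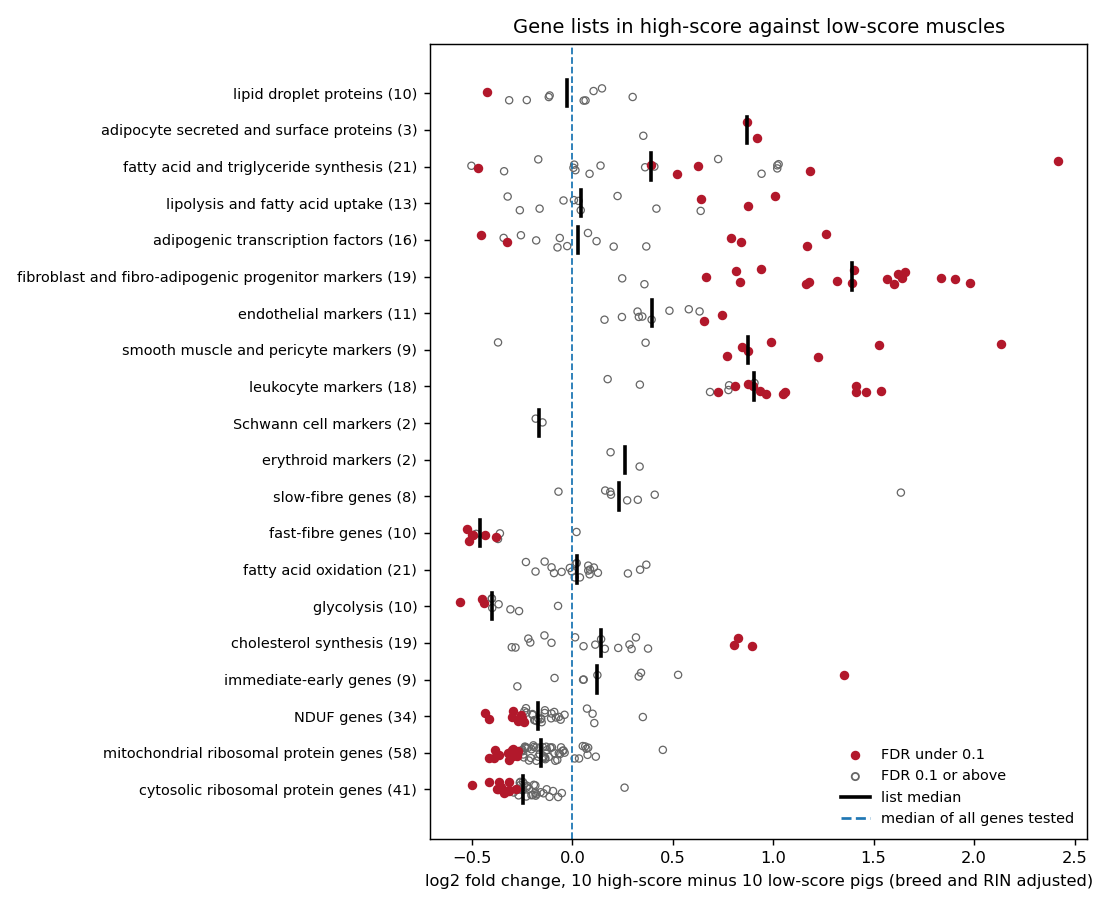
Each point is 1 tested gene of a list, at its log2 fold change between 10 high-score and 10 low-score pigs with breed and RIN in the model (number of genes tested in brackets). Filled points passed an FDR of 0.1, black bars are list medians and the dashed line is the median of all genes tested. Fibroblast, smooth muscle and leukocyte lists lie to the right with medians of 1.39, 0.88 and 0.90, and fast-fibre and glycolysis lists to the left with -0.46 and -0.40.

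Summed list levels were set against each score gene over the 41 pigs, as a description of values that share their libraries. The log2 sum of the fibroblast list had r = 0.508 with ADIPOQ, 0.409 with PLIN1 and 0.422 with FABP4, and r = 0.375 with RIN. Within batches 2, 3 and 5, with 15, 9 and 11 pigs, its r with ADIPOQ was 0.514, 0.0305 and 0.684. Without the 2 pigs farthest from the batch median of ADIPOQ these became 0.149, 0.621 and 0.643, so the order of batches 2 and 3 rests on those pigs. The leukocyte sum had r = 0.559 with FABP4, 0.211 with ADIPOQ and 0.175 with PLIN1. Its r with FABP4 within the same batches was 0.124, 0.274 and 0.408, and without the 2 pigs farthest in FABP4 -0.0415, 0.740 and 0.245.

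Fast-fibre and glycolysis genes stood on the other side. Of 10 fast-fibre genes 6 fell and none rose, with a median of -0.46, where 5.81% of all genes fell. TNNT3, fast troponin T (chromosome 2, 1297826 to 1316865), ran from 7030 over 10362 to 12221 CPM in the high pigs and from 8742 over 12776 to 17246 CPM in the low pigs (-0.51 ± 0.14, FDR = 0.0328). The groups overlapped for it, as for TNNI2 and TNNC2, the fast troponins I and C, at -0.52 ± 0.16 and -0.50 ± 0.14. Slow-fibre genes gave no call among 8, with a median of 0.23. Among Landrace pigs alone none was called either, with 6 higher at an unadjusted p under 0.05 in edgeR and a median of 0.83. In glycolysis 3 of 10 genes fell and none rose, PGAM2 by 0.56, GAPDH by 0.45 and ALDOA by 0.44, with a median of -0.40. DESeq2 called 8 of these 10. Landrace 8 was the lowest high pig for all of these 3. Under scaling by total counts no fast-fibre gene passed, 1 glycolysis gene passed as lower, and the medians were -0.22 and -0.16. With age and batch in the model no gene of either list passed in edgeR, the one tool run there, with 5 fast-fibre and 2 glycolysis genes lower at an unadjusted p under 0.05 and medians of -0.38 and -0.33. Among Landrace pigs alone 4 and 2 of 10 fell, where 1.7% of all genes did, with medians of -0.60 and -0.49. Groups chosen without FABP4 gave no call in either list and smaller medians, -0.24 and -0.12, with 2 fast-fibre genes and no glycolysis gene lower at an unadjusted p under 0.05 in edgeR, the one tool run there.

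Genes of mitochondria and ribosomes differed by small amounts, and the sign depends on the scaling. Of 34 NDUF genes, which belong to respiratory complex I or its assembly, 9 fell, where 5.81% of all genes did, and none rose, with a median of -0.17 that became 0.07 under scaling by total counts. NDUFB11 had 131 over 155 to 180 CPM in the high pigs and 146 over 176 to 213 CPM in the low pigs (-0.29 ± 0.08, FDR = 0.0321). Against the same 5.81%, of 58 mitochondrial ribosomal protein genes 11 fell, with a median of -0.16 that became 0.09, and of 41 cytosolic ones 12 fell, with a median of -0.24 that became 0.0040. RPL3L, the muscle paralogue of RPL3, was among the latter (-0.32 ± 0.08, FDR = 0.0243). With age and batch in the model 5 of 34, 1 of 58 and 1 of 41 genes of these lists fell, where 1.11% of all genes did. Reads of ribosomal protein genes can be split with near-identical copies, so single values there are uncertain.

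Cholesterol synthesis genes and immediate-early genes gave 3 calls of 19 and 1 of 9, all higher, with medians of 0.14 and 0.12, where 10.8% of all genes rose. With age and batch in the model 2 of 19 and none of 9 rose, where 5.53% of all genes did. In that edgeR fit 3 cholesterol genes and no immediate-early gene were higher at an unadjusted p under 0.05. LSS, the lanosterol synthase, did not overlap between groups (0.80 ± 0.20), and SQLE, squalene epoxidase, rose by 0.89. EGR1, a transcription factor induced within minutes of a stimulus, ran from 8.89 over 40.6 to 83.2 CPM in the high pigs and from 1.59 over 4.93 to 30.1 CPM in the low pigs (1.35 ± 0.50, FDR = 0.0887). It did not pass in limma, with age and batch in the model, or without the 3 highest pigs.

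Outside the lists, the 6 genes with the lowest p among those higher were RCN1, a calcium binding protein of the endoplasmic reticulum, CCN3, a matricellular protein, IQGAP2, PPT1, a lysosomal thioesterase, PDGFD, a growth factor, and EFEMP1, a matrix fibulin. CCN3 ran from 2.28 over 3.07 to 7.18 CPM against 0.225 over 0.680 to 2.28 CPM (1.96 ± 0.29), and EFEMP1 from 4.52 over 7.35 to 12 CPM against 0.611 over 1.88 to 3.81 CPM (1.68 ± 0.27). IQGAP2, PPT1 and EFEMP1 did not overlap between the groups. Among those lower were PRXL2B, BAG2, a cochaperone, ZNF219, SYMPK, a scaffold of RNA 3' end processing, PRMT1, an arginine methyltransferase, and BTBD6, at -0.74, -0.84, -0.49, -0.63, -0.53 and -0.47. The groups overlapped for all 6 of these. Their medians in CPM, high against low in the same order, were 26.2 and 39.0, 7.08 and 10.1, 74.9 and 86.3, 48.2 and 52.7, 102 and 117, and 239 and 274. The fold changes are relative to the median gene, and scaling by total counts left 0.224% of all genes as lower.

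Whether the differences follow the score within the remaining pigs was asked in the 21 pigs of neither group, whose scores run only from -0.542 to 0.148. No gene passed in edgeR (0.0%, lowest FDR = 0.774, with 660 genes at an unadjusted p under 0.05) or in limma (622 genes at an unadjusted p under 0.05). Of the 1854 genes called between high and low pigs, 76.5% had a slope of the same sign in these 21 pigs, against 64.5% of all 11144 genes. The share was 71.9% for genes called higher, against 61.5% of all genes with a positive difference, and 85.2% for genes called lower, against 67.5% of all with a negative one. PPARG had a slope of 1.06 log2 units per unit of score (unadjusted p = 0.0186) and LUM one of 1.41 (unadjusted p = 0.0422), while DGAT2 had 0.26 and COL3A1 0.36. Slopes were positive for 11 of 11 endothelial genes, with a median of 0.71, and for 7 of 19 fibroblast genes, with a median of -0.03 against -0.03 over all genes.

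**Figure D3:**
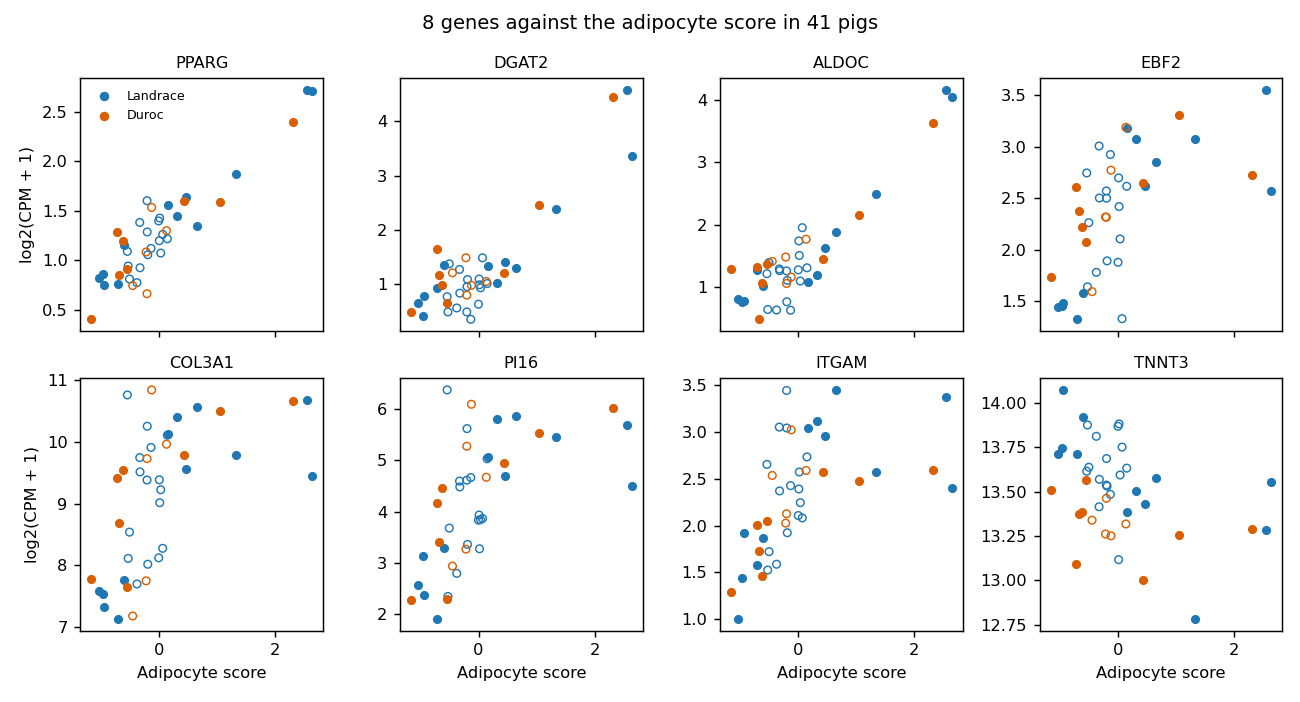
log2(CPM + 1) of 8 genes, chosen after their values were seen, against the adipocyte score in 41 pigs, coloured by breed, with filled points for the 20 high and low pigs and open points for the other 21. PPARG, DGAT2 and ALDOC are highest in the 3 pigs with the top scores, while COL3A1 and PI16 are highest in pigs of neither group.

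The score was also taken as a number over all 41 pigs, with breed, RIN, age, batch and FCR in the model, a fit that shares its pigs with the comparison of high and low. Here 21 genes passed (0.188%), all with a positive slope. ALDOC, the aldolase C isoform (chromosome 12, 44823376 to 44827273), had a slope of 1.14 ± 0.11 log2 units per unit of score, and levels of 1.11 over 3.07 to 16.9 CPM in the high pigs and 0.399 over 1.05 to 1.59 CPM in the low pigs. DGAT2 had a slope of 1.28 ± 0.13, FASN one of 0.77 ± 0.10, PPARG one of 0.67 ± 0.07 and ELOVL6, a fatty acid elongase, one of 0.55 ± 0.09. ADIRF, named for its part in adipogenesis, had 0.90 ± 0.14, and PRKAR2B, a regulatory subunit of protein kinase A, 0.49 ± 0.08. The other genes were PPP1R1B, ALDH1L1, MGST1, CYP2S1, GYG2, SORL1, AOX1, RBPMS, ADCY5, LRRC32, ACAA1, TSPO, APCDD1 and 1 gene with no symbol. No fibroblast, smooth muscle, endothelial or leukocyte marker passed in this fit, and the fibroblast list had a median slope of 0.27 with all 19 slopes positive. Without the 3 highest pigs 559 genes passed, 399 with a positive slope, and 11 of the 21 were among them. PPARG then had a slope of 0.65 (FDR = 0.00918) and DGAT2 one of 0.71 (FDR = 0.0741), and FASN did not pass at 0.31 (FDR = 0.218). The slope did not differ between breeds for any gene in edgeR (0.0%, with 200 genes at an unadjusted p under 0.05) or limma (215 genes).

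The count of genes between high and low pigs also differed with the genes in the score. With groups chosen by PLIN1 and ADIPOQ alone, 1 gene passed (0.00897%), MYOC, a secreted glycoprotein, at 1.37 (FDR = 0.0261), and 1050 genes had an unadjusted p under 0.05. That choice kept 7 of the 10 high and 6 of the 10 low pigs, so the score genes and the pigs compared changed together. The part of each was not tested. DGAT2 and PPARG differed by 2.64 and 1.22 in it, as against 2.42 and 1.26 with FABP4 in the score, and did not pass (FDR = 0.485 for both). Without PLIN1 1082 genes passed and without ADIPOQ 698. Leaving out the 3 highest pigs left 1506 genes (13.5%).

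**Figure D4:**
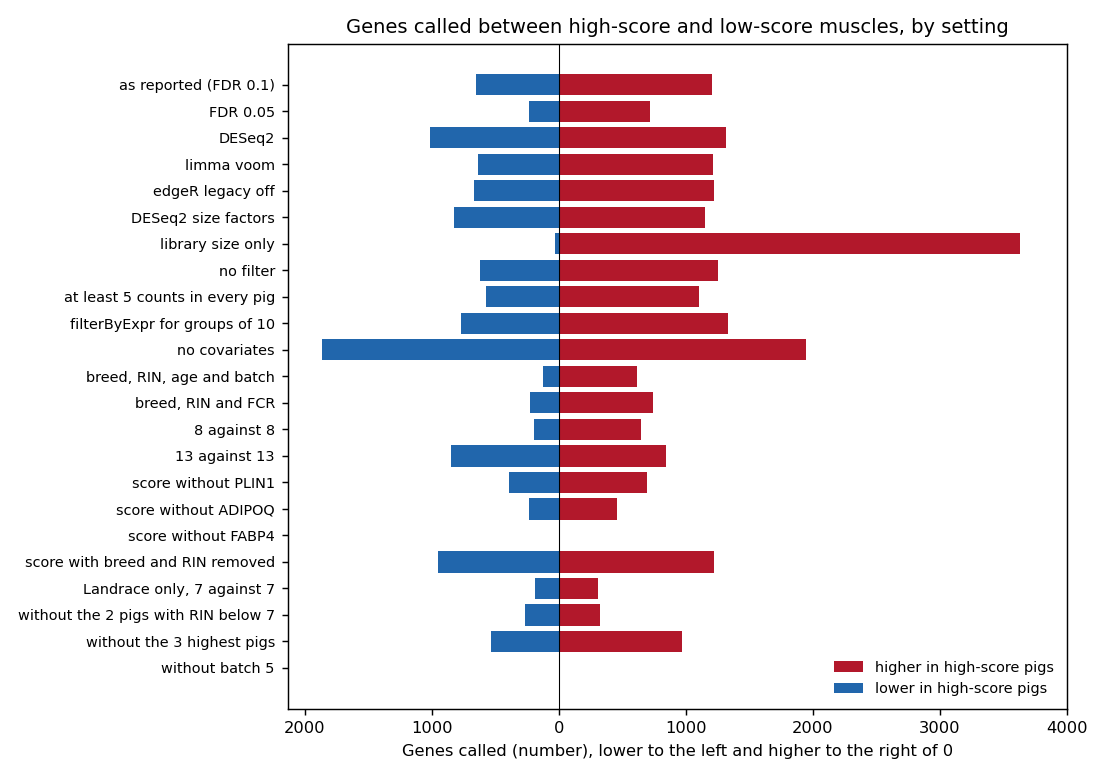
Number of genes past an FDR of 0.1 (0.05 where stated) between high-score and low-score pigs under each setting, with genes higher in the high pigs to the right of 0 and lower ones to the left. The reported setting gives 1207 higher and 647 lower, scaling by total counts 3630 and 25, and the settings without FABP4 in the score and without batch 5 give 1 and 0 in all.

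The score overlapped between the breeds. Landrace pigs averaged 0.0286 ± 0.884 (SD, n = 28; lowest -1.04, median -0.162, highest 2.64) and Duroc pigs -0.0616 ± 0.910 (SD, n = 13; lowest -1.16, median -0.218, highest 2.32). The difference of 0.0902 was smaller than the spread in either breed (two-sided permutation p = 0.794). Within batches 2, 3, 4 and 5 it was 0.0988, 0.192, 0.168 and -0.638 (two-sided exact permutation p = 0.963, 0.833, 0.8 and 0.127), and batch 1 held 1 pig. With RIN, age and batch in the model it was -0.25 (permutation p = 0.556).

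FCR ran from 1.83 to 2.25 over the pigs. Values of this size are those of feed over gain, the form in the study's introduction, since pigs eat more than they gain, while its methods give the inverse ratio. High pigs had 1.93 over 2.13 to 2.22 (2.12 ± 0.0999, SD, n = 10) and low pigs 1.83 over 2.04 to 2.15 (2.01 ± 0.123, SD, n = 10). The groups overlapped, and the difference of 0.103 did not pass (two-sided permutation p = 0.0594). It was 0.0675 with 8 against 8 pigs (exact permutation p = 0.265) and 0.0754 with 13 against 13 (permutation p = 0.0845). Within Landrace it was 0.0631 (7 against 5 pigs, exact permutation p = 0.101) and within Duroc 0.0773 (3 against 5 pigs, exact permutation p = 0.357). Across the 41 pigs score and FCR had r = 0.258 (permutation p = 0.0966) and rho = 0.263 (permutation p = 0.0954), with r = 0.210 without the 2 pigs farthest from the median FCR. The Benjamini-Hochberg adjusted p was 0.331 for r and 0.292 for rho in a family of 24 relations with FCR, RIN, age and total counts. Within Landrace r was 0.265 and within Duroc 0.323, and in batches 2, 3 and 5 it was 0.253, 0.545 and 0.192. Without the 2 pigs farthest from the median FCR in each batch these became 0.0847, -0.0520 and 0.113, so the value of batch 3 rests on those pigs. With breed, RIN, age and batch removed from both, r was 0.319 (permutation p = 0.0404) and rho 0.340 (permutation p = 0.0308), not adjusted for the number of relations. Both p values permuted residuals without allowing for the terms removed, so they are too low and are not read as passing 0.05. RIN had r = 0.283 with the score (permutation p = 0.0457, adjusted p = 0.274) and total counts r = 0.296 (permutation p = 0.0222, adjusted p = 0.177). Within Landrace these were larger, r = 0.409 for RIN (permutation p = 0.00638) and 0.416 for total counts (permutation p = 0.00344), each with an adjusted p of 0.0766. Their rho was 0.497 and 0.451, with adjusted p of 0.195 and 0.199. Within Duroc r was 0.0525 and 0.0688.

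**Figure D5:**
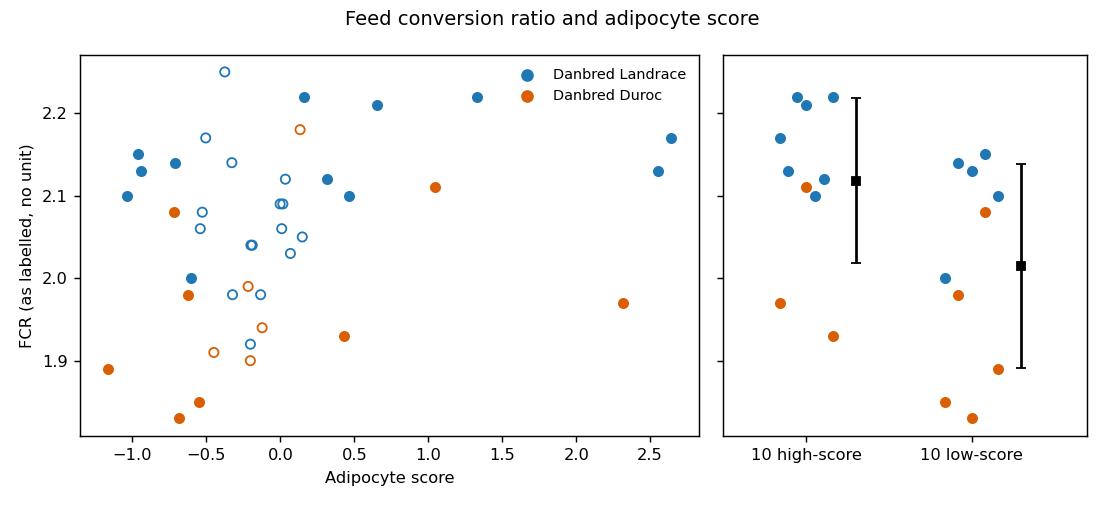
Left, FCR against the adipocyte score of 41 pigs by breed, filled for the 20 high and low pigs. Right, FCR of the 10 high-score and 10 low-score pigs, with squares and bars for mean ± SD (2.12 ± 0.0999 and 2.01 ± 0.123): the groups overlap, and most Duroc pigs lie below most Landrace pigs in both.

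Genes were tested for FCR with and without the score in the model of RIN, age, breed and batch. No gene passed in either (edgeR, lowest FDR = 0.286 without the score and 0.881 with it). At an unadjusted p under 0.05 there were 966 genes without the score and 614 with it.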

How the data were processed

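RNA from psoas major muscle was sequenced without strand as polyA mRNA by a service laboratory. Per the labels and the study's methods, the authors trimmed reads with Trimmomatic 0.39 and mapped them to the pig genome with STAR 2.7.1a, which counted reads per gene on the Ensembl annotation. The deposited files hold these raw counts, 1 file per pig. The unstranded column was used, without the summary lines on unmapped or ambiguous reads. Counts on genes were 69.9% to 80.9% of all reads that STAR reported, and without strand a gene and its antisense partner cannot be told apart. The files list 25880 gene IDs, of which 14857 had a symbol in the name table. Positions come from RefSeq, matched by symbol.

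Counts were scaled with TMM, filtered with filterByExpr over 41 pigs and tested in edgeR 4.0.16 (quasi-likelihood, Benjamini-Hochberg FDR threshold of 0.1, as the study used), with limma 3.58.1 and DESeq2 1.42.0 as alternatives. Score genes stayed out of the tests, except that each was tested in groups chosen by the other 2. The scripts were tested on simulated data. Permutation tests used 100000 draws, or all arrangements for small groups. The breed test with RIN, age and batch permuted residuals with fewer draws. The pigs were separate animals, and their number and depth limit the precision, with genes under a few CPM the least certain.

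The members and the gene lists were chosen with earlier results of these data known, and support nothing on their own. The rule for named genes took the 4 of each list with the lowest p, the 6 higher and 6 lower genes outside the lists with the lowest p, and the score genes. Some of these stand only in the counts, and others in the text were chosen after their values were seen, or close a count. An item is not reported here. The 20 lists were 5 of fat cell genes, 6 of other cell types, slow-fibre and fast-fibre genes, fatty acid oxidation, glycolysis, cholesterol synthesis, immediate-early genes, and NDUF, mitochondrial and cytosolic ribosomal protein genes. No sequence is shown, since none was in the tables used here.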

Additional observations from a re-analysis of the deposited data

Results flagged for a closer look

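The 87 named genes, on the log2(CPM + 1) scale, and FCR, RIN and the score were looked at in the 10 high and the 10 low pigs, 180 sets in all. In 15 sets, all of genes, 1 pig stood apart from the others by Dixon's test, where chance flags about 1 in 20. The gap given is that to the nearest pig divided by the range of the group.

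Landrace 8, a high pig of batch 3 with RIN 7.8, accounted for 8 of the 15. It had the highest level of the slow-fibre genes CSRP3 (388 CPM, gap 0.61), MYL2 (6879 CPM, gap 0.527) and ATP2A2 (2000 CPM, gap 0.593). It had the lowest level of the fast troponin TNNC2 (6022 CPM, gap 0.518) and of the glycolytic genes PGAM2 (1776 CPM, gap 0.675), GAPDH (24316 CPM, gap 0.721), ALDOA (22998 CPM, gap 0.726) and ENO3 (7273 CPM, gap 0.728). Leaving this pig out changed the call of 5 of the 87 named genes.

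Landrace 16, with the second highest score, was highest among the high pigs for ELOVL5 (13.5 CPM, gap 0.535) and EBF1 (11.6 CPM, gap 0.49). Landrace 27, with RIN 6.6, was lowest among the low pigs for FITM2 (7.80 CPM, gap 0.501) and ZNF219 (47.9 CPM, gap 0.55). Among the low pigs Duroc 9 was highest for MYC (22.7 CPM, gap 0.502) and Duroc 3 for IQGAP2 (3.98 CPM, gap 0.513). Landrace 7 was the lowest high pig for BAG2 (3.89 CPM, gap 0.538).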

How the results depend on the processing

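Against 1854 genes called between high and low pigs, an FDR of 0.05 gave 954, total counts as the only scaling 3655, no covariates 3804, age and batch added 740 (722 of them among the 1854), FCR added 966, and 8 against 8 pigs 846. Scores without PLIN1, ADIPOQ or FABP4 gave 1082, 698 and 1, Landrace pigs only 497, and groups chosen anew among the pigs with RIN of 7 or more 586. Leaving out batch 5, which held 6 of the 10 low pigs, gave 0, an alternative added after the data were seen. Leaving out 1 pig gave 997 to 2645 genes. The fits without Landrace 2 (997), Landrace 20 (1035) and Duroc 12 (1105), all low pigs, moved the count by over 1.5 times. DESeq2 gave 2332, limma 1853, DESeq2 size factors 1979, no filter 1872, 13 against 13 pigs 1695 and the fit without the 3 highest pigs 1506. The split of calls moved by over 10 percentage points under several of these settings, as in 13 against 13 pigs (845 higher, 850 lower), without covariates (1945 higher, 1859 lower) and with age and batch (616 higher, 124 lower). Causes other than fewer pigs or genes were not tested.

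For the slope over 41 pigs, 21 genes became 33 in limma, 43 under total counts, 852 with breed and RIN as the only covariates, and 559 without the 3 highest pigs, the last also added later. The breed difference reversed from 0.0902 to -0.25 with RIN, age and batch. The relation of score and FCR moved from r = 0.258 to 0.319 with breed, RIN, age and batch removed, where the permutation p does not allow for the terms removed. No paired analysis was possible because the pigs are separate animals and the numbers within a breed only name them. The 21 middle pigs span a narrow range of scores, which limits what their slopes can show.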
